A study of Phalaenopsis amabilis with 15 samples.

Results

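Kinesin genes of the moth orchid Phalaenopsis amabilis were followed through its young leaves, taking as kinesins all genes whose protein match or, where there was none, description contained the word kinesin. Of the 21144 genes in the deposited table, 76 met this rule. By the names they carry, 71 are motors and 5 are light-chain genes, which hold no motor, so the set is wider than motor proteins. The motors fell into KIN-4 (4 genes), KIN-5 (11), KIN-6 (1), KIN-7 (13), KIN-8 (4), KIN-10 (2), KIN-12 (10), KIN-13 (4), KIN-14 (16) and the ungrouped KIN-U genes (6). The light-chain genes were KLCR1, 3 loci named KLCR2, and KLC4.

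The data are 15 RNA-seq libraries of the uppermost young leaf, 3 for each of 5 groups, and every library pooled 3 plants of an experiment with 120 plants. Control leaves date from day 0, when plants had a 12 h photoperiod and day and night temperatures of 28 and 25 °C. The others then had cooler days and nights, 25 and 18 °C, under a photoperiod of 16 h (LD) or 8 h (SD), and were sampled after 20 or 40 days. The groups are called LD_20d, SD_20d, LD_40d and SD_40d. Each of them differs from the control in temperature, day length and time on the bench together, and these cannot be told apart, whereas by the labels SD and LD leaves of 1 age differ in day length alone.

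Kinesins are motors that walk along microtubules by splitting ATP, and flowering plants have many of them. In dividing plant cells several families build the spindle and the phragmoplast, the microtubule array that lays down the new cell wall. In cells that no longer divide others act on cortical microtubules, wall deposition and organelle movement, while light chains in animals tie a motor to its cargo.

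Gene names are those of the protein match, to rice for 53 genes, Arabidopsis thaliana for 20, another species for 2 and none for 1. For 14 genes the description gave another name than that used here, or none of this kind. They include KLC4, which had no match. KIN14F LOC110019947, KIN14R LOC110027917 and KIN14K LOC110021177 were KIN14P, KIN14E and KIN14C by their descriptions. The description marked 8 models as partial and 7 as low quality. The low-quality models include KIN10A LOC110028660, KIN4C LOC110030600, KIN14C LOC110034037, KIN7A LOC110017802 and KLCR2 LOC110019663. Reads of P. amabilis were counted on loci of P. equestris, so close copies within a family may share or lose reads. Sequences are not shown because no reference was used here.

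Library totals ran from 11246777 to 14637388 counts, of which kinesins took 0.184% to 0.369%. A gene was tested where it passed edgeR's expression filter, which 16700 genes and 67 of the 76 kinesins did. The 9 that did not pass had between 0 and 93 counts over all 15 libraries. Of these, 6 were KIN-5 loci and the others were KIN4A LOC110037111, KIN7F LOC110031850 and KINUA LOC110038486. Values are CPM (counts of a gene scaled to 1 common library total with TMM factors) in replicates 1, 2 and 3, or log2 fold changes ± standard error (n = 3 libraries per group) from edgeR's quasi-likelihood test. A gene was called where its Benjamini-Hochberg adjusted p over all 16700 genes was under 0.05. The libraries of a group are labelled as replicates of pooled plants, so the p-values measure the spread between such pools.

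Per kilobase of gene length, the tested kinesins had a median level of 5.27 CPM per kb, against 14.1 for all tested genes. They were also longer, with a median of 2851 bases against 1528. KIN14L LOC110024967, of the KIN-14 family, stood first with a mean of 87.5 CPM per kb and a range of 68.6 to 104.9 over the 15 libraries. KLCR2 LOC110019663 followed with 62.4 CPM per kb (55.9 to 72.2), so these neighbours in the order overlapped. Next came KIN7K LOC110039397 with 48.9 CPM per kb (29.1 to 59.2), KINUB LOC110022846 with 38.2 (28.9 to 45.5), KIN4A LOC110026211 with 37.4 (22.5 to 48.1) and KIN13A LOC110026725 with 36.1 (30.4 to 42.6). The last 3 ranges overlapped almost wholly. The most abundant KIN-5 gene was KIN5A LOC110026416, with a mean of 32.9 CPM per kb. KIN-6 and the most abundant KIN-8, KIN-10 and KIN-12 genes had means of 4.09, 14.5, 3.74 and 5.86 CPM per kb. Their highest libraries were at 7.10, 24.3, 16.4 and 21.1 CPM per kb.

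**Figure D1:**
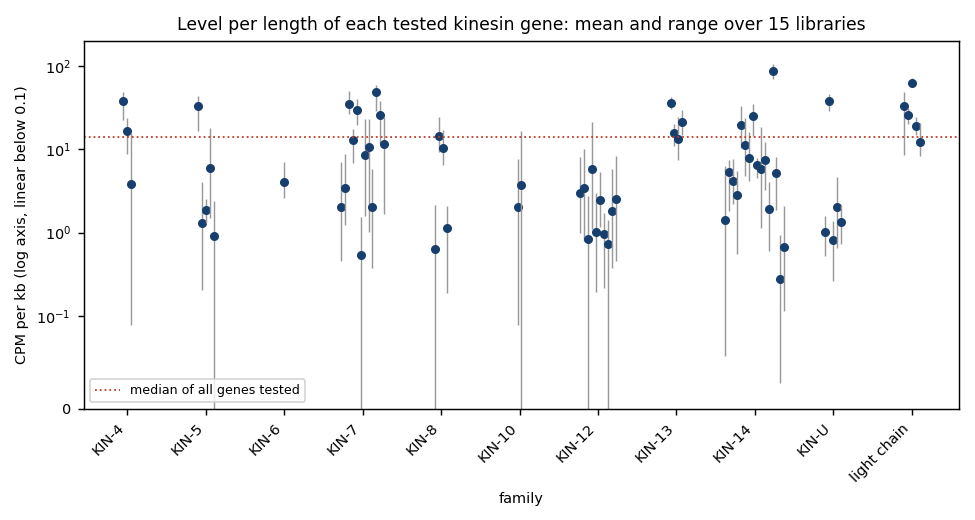
Level per gene length (CPM per kb, log axis that is linear below 0.1) of each tested kinesin gene by family, with dots for the mean over 15 libraries and lines for the lowest to highest library. KIN14L at 87.5 is the highest dot, and all KIN-12 means lie under the dotted median of all tested genes, 14.1.

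Summed over the 76 genes, kinesin CPM were 2109, 1988 and 2076 in the control, 2400, 3152 and 2651 in LD_20d, and 3042, 3366 and 3396 in SD_20d. At 40 days they were 2195, 2223 and 2283 in LD and 2492, 2274 and 2253 in SD. Every 20-day library was above every control library, and at 40 days only SD_40d replicate 1 passed 2400. Within LD_20d, replicate 2 was the highest and replicate 1 the lowest library for 42 of the 67 tested kinesins, against 23.2% of all tested genes. In bulk leaf RNA, fewer cells of a type and less RNA per cell cannot be told apart.

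**Figure D2:**
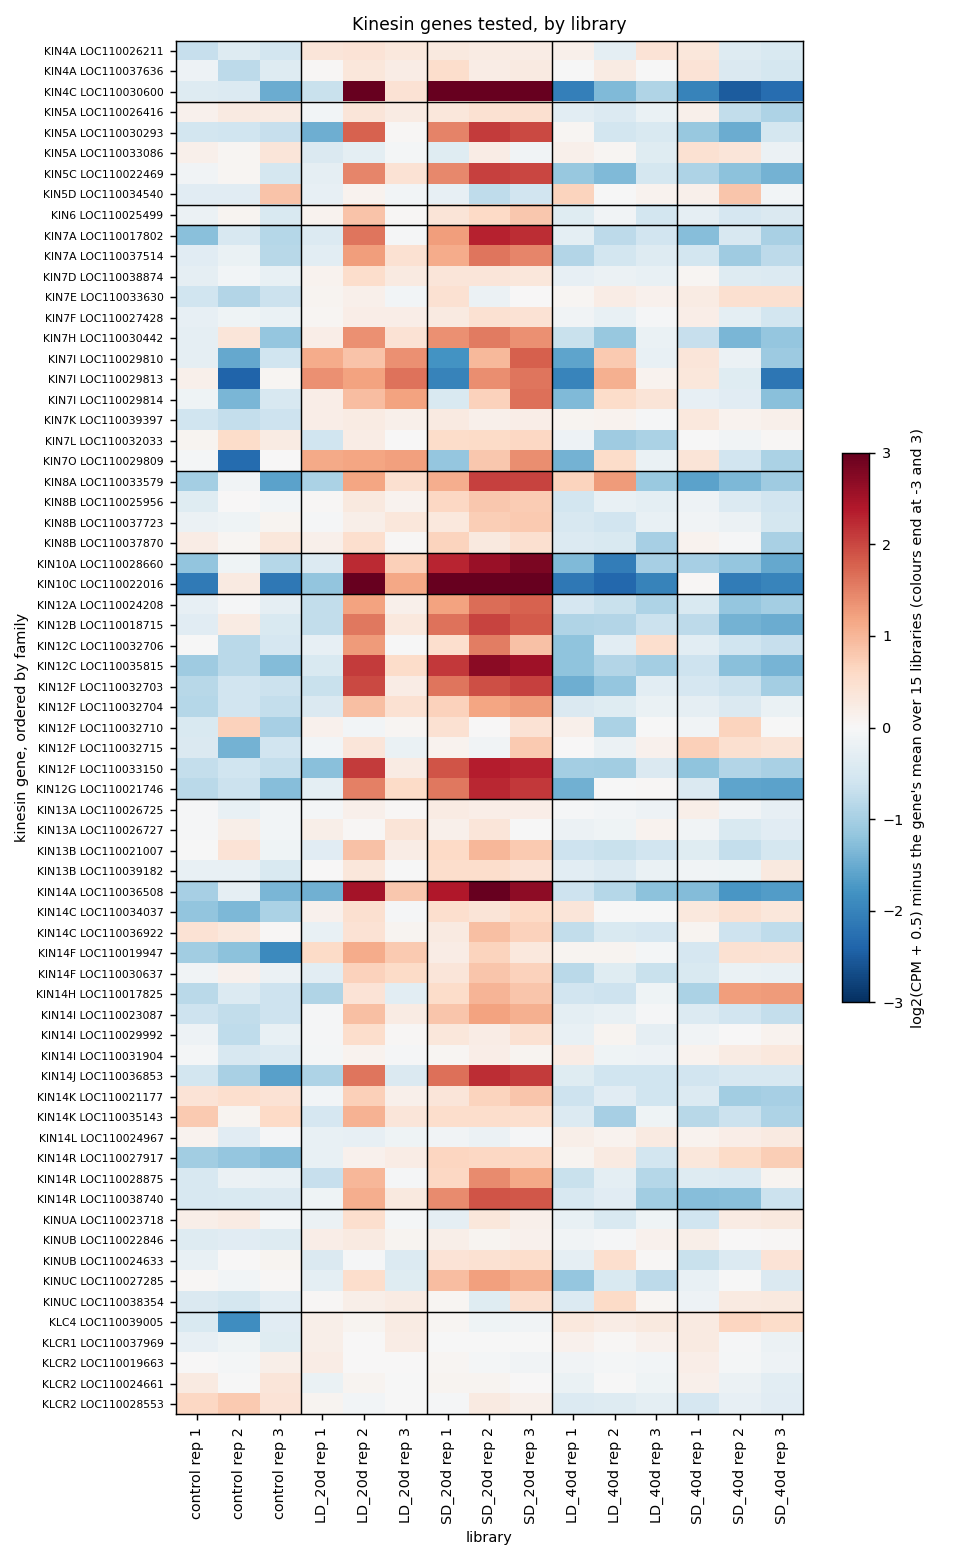
Each tested kinesin (67 rows, ordered by family) in each library (15 columns), as log2(CPM + 0.5) minus the gene's mean over libraries. The 3 SD_20d libraries and LD_20d replicate 2 are red for most KIN-12 and KIN-10 genes, and the 40-day columns are mostly pale or blue there.

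The first comparison set SD_20d leaves against the control, and 43 of 67 kinesins rose and 1 fell. Over all tested genes 35.1% were called in this comparison, 17.2% as higher and 17.9% as lower. The median kinesin log2 fold change was 0.85, against 0.02 for all genes. All 10 KIN-12 genes had positive values and 8 of them rose, as did both KIN-10 genes, all 3 tested KIN-4 genes, 12 of 16 KIN-14 genes, 7 of 12 KIN-7 genes and 3 of 4 in each of KIN-8 and KIN-13. Among the light chains none rose and 1 fell.

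KIN-12 motors sit at the phragmoplast midline or the future division site in Arabidopsis. KIN12C LOC110035815 had CPM of 5.46, 6.66 and 4.56 in the control, 8.65, 53.3 and 18.0 in LD_20d, and 53.6, 80.7 and 72.3 in SD_20d. It was back at 4.95, 6.28 and 5.73 in LD_40d and 7.58, 4.76 and 4.28 in SD_40d. SD_20d libraries stood above all other 12, with LD_20d replicate 2 next to them. Its log2 fold change over the control was 3.63 ± 0.52 in SD_20d (adjusted p = 0.000221) and 2.26 ± 0.50 in LD_20d (adjusted p = 0.00547).

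KIN10A LOC110028660 belongs to a family whose Arabidopsis member moves vesicles along the phragmoplast. Its CPM were 0.897, 2.39 and 1.26 in the control, 1.88, 14.4 and 4.70 in LD_20d and 15, 18.7 and 21.9 in SD_20d, then at most 1.09 in all 40-day libraries. The change over the control was 3.61 ± 0.64 in SD_20d and 2.21 ± 0.62 in LD_20d, with adjusted p of 0.000929 and 0.0207. The LD_20d call was lost in 4 of 11 alternatives, among them the fit without LD_20d replicate 2, with values down to 1.11 and adjusted p up to 0.152. Every SD_20d library was above every other library.

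KIN10C LOC110022016, the second KIN-10 gene, swung more widely. The control had 0.0815, 2.55 and 0.0787 CPM, LD_20d 0.627, 25.5 and 5.21, and SD_20d 25.8, 40.1 and 35.3. LD_40d had 0.0761, 0 and 0.136 CPM and SD_40d 2.11, 0.0915 and 0.147. In the control and in SD_40d 1 library thus carried nearly all of the signal. SD_20d exceeded the control by 5.22 ± 1.25 (adjusted p = 0.00597). LD_40d held 3 counts in all against 453 in LD_20d, of which replicate 2 gave 373. The ratio of the pooled counts was 139.7, with a 95% counting interval of 47.5 to 680 that leaves out the spread between libraries. In the edgeR test LD_40d minus LD_20d was -6.94 (adjusted p = 0.0415). That call was lost in 5 of 10 alternatives, with adjusted p up to 0.187. The LD_20d rise over the control (3.53 ± 1.21, adjusted p = 0.0498) lost its call in 8 of 11 alternatives, where adjusted p ran up to 0.351.

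KIN4C LOC110030600 had the largest fall of any tested kinesin between SD_20d and SD_40d. Its CPM were 3.26, 3.21 and 1.26 in the control, 2.58, 41.3 and 6.16 in LD_20d, and 42.9, 63.2 and 61.7 in SD_20d. LD_40d had 0.685, 1.46 and 2.11 CPM and SD_40d 0.729, 0.366 and 0.516. SD_20d was 4.44 ± 0.82 above the control (adjusted p = 0.00122), and SD_40d was 6.65 ± 0.97 below SD_20d (adjusted p = 0.000733). Only LD_20d replicate 2 came near the SD_20d libraries.

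Spindle motors of the KIN-5 family cross-link and slide antiparallel microtubules. KIN5C LOC110022469 stood at 13.1, 14.7 and 9.68 CPM in the control, 11.8, 40.1 and 19.4 in LD_20d and 39.7, 60.6 and 58.4 in SD_20d. At 40 days it was at 6.17, 5.34 and 9.61 CPM in LD and 7.22, 5.76 and 5.01 in SD. SD_20d exceeded the control by 2.08 ± 0.37 (adjusted p = 0.00103), and SD_40d lay below both SD_20d (-3.14 ± 0.39, adjusted p = 0.00065) and the control (-1.06 ± 0.39, adjusted p = 0.0443). The control and SD_40d libraries did not overlap, but 5 of 11 alternatives lost that last call, with adjusted p up to 0.133. The abundant KIN5A LOC110026416 had 127, 140 and 140 CPM in the control and 149.6, 161.7 and 162.7 in SD_20d, and the log2 difference of 0.22 was not called. In SD_40d it had 129, 70.0 and 61.0 CPM, a fall of -0.86 ± 0.22 from SD_20d (adjusted p = 0.00711) that held in every alternative. Its fall from the control (-0.65 ± 0.22, adjusted p = 0.0304) was lost in 5 of 11 alternatives, with adjusted p up to 0.126.

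The KIN-7A motors, whose Arabidopsis and tobacco counterparts start a kinase cascade that expands the phragmoplast, were present as a pair of loci that both rose. KIN7A LOC110017802 had 1.71, 3.29 and 2.44 CPM in the control, 3.49, 15.5 and 4.70 in LD_20d and 12.1, 25.8 and 24 in SD_20d. It exceeded the control by 3.05 ± 0.52 in SD_20d and by 1.67 ± 0.51 in LD_20d (adjusted p = 0.000778 and 0.031). KIN7A LOC110037514 was 1.92 ± 0.34 above the control in SD_20d (adjusted p = 0.000938) and 1.09 ± 0.34 in LD_20d (adjusted p = 0.0316). Neither LD_20d call of these loci held in every alternative, while both SD_20d calls did. NPK1 LOC110035033, matched to the tobacco kinase of that cascade, rose by 2.25 ± 0.35 in SD_20d (adjusted p = 0.00044).

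Several KIN-14 motors followed the same course. KIN14J LOC110036853 had 7.58, 5.51 and 3.30 CPM in the control, 5.72, 35.6 and 8.22 in LD_20d, 36.5, 53.8 and 49.6 in SD_20d and 7.30 to 8.60 in all 40-day libraries. The SD_20d rise was 3.09 ± 0.54 (adjusted p = 0.000918). KIN14I LOC110023087 went from 18.3, 16.6 and 18.3 CPM in the control to 50.6, 65.5 and 59.8 in SD_20d, a rise of 1.73 ± 0.21 (adjusted p = 6.76e-05). LD_20d held 27.3, 53.5 and 33.5 CPM of it, and all 3 libraries were above the control. KIN14A LOC110036508 rose by 4.22 ± 0.86, from control libraries of 0.393 to 1.40 CPM to SD_20d libraries of 11.7 to 20.1. KIN14R LOC110038740, at 1.14 to 1.18 CPM in the control, rose by 2.61 ± 0.41 (adjusted p = 0.00235 and 0.000452).

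**Figure D3:**
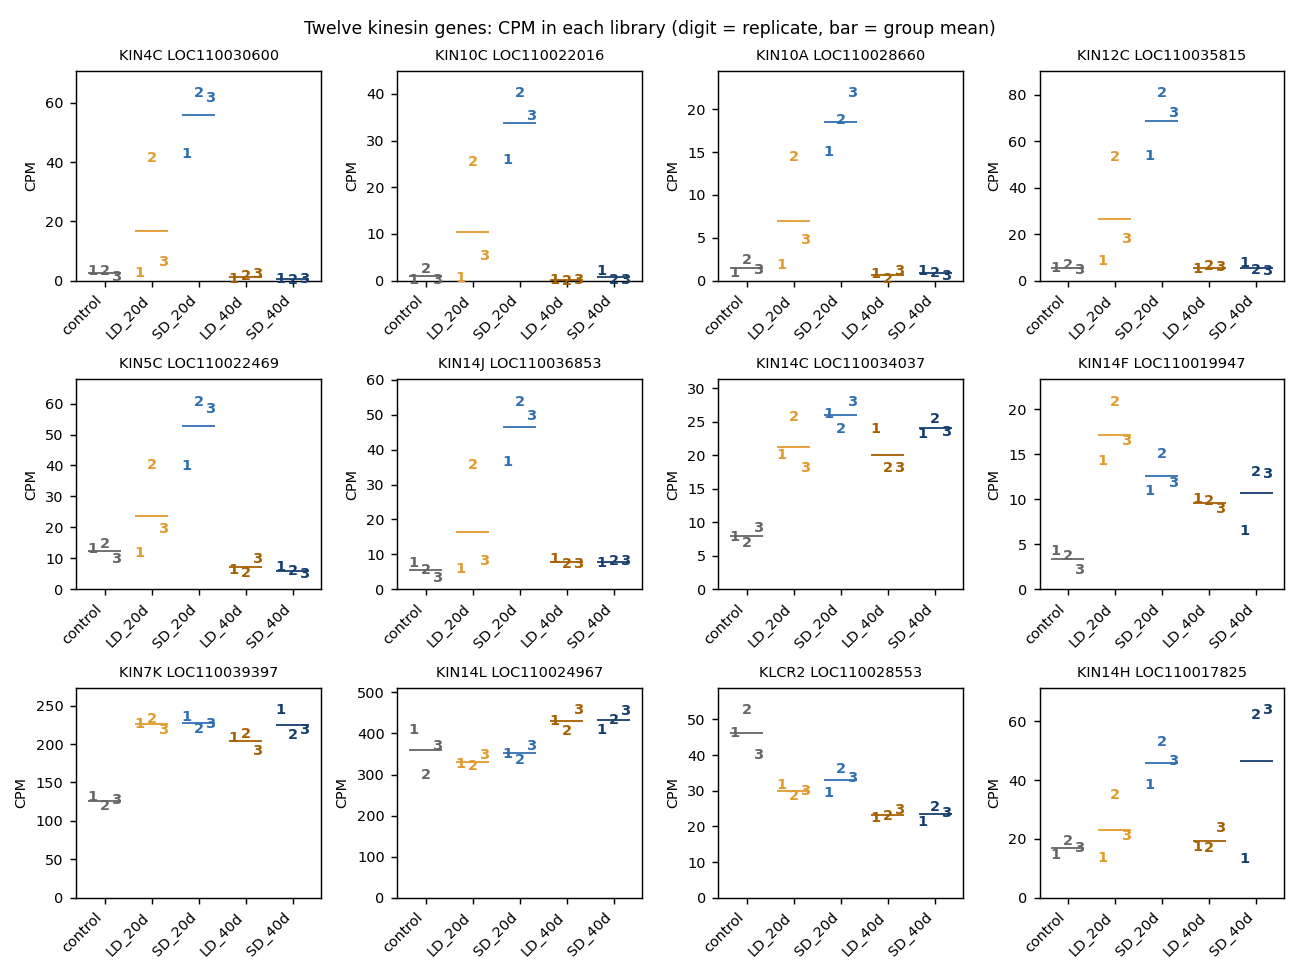
CPM of 12 kinesin genes in the 5 groups, each panel on its own axis from 0, with digits for the replicate libraries and bars for the group mean. In the panels of KIN4C, KIN10C, KIN10A, KIN12C, KIN5C and KIN14J, the digit 2 of LD_20d lies far above digits 1 and 3, and the 40-day digits lie low.

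LD_20d leaves compared with the control gave 26 higher kinesins and 1 lower one, where 24% of all genes were called, 11.4% as higher and 12.6% as lower. The median kinesin value was 0.77. Of these rises, 24 were also rises in SD_20d over the same control libraries, a pattern of 8.86% of all genes, and 17 of the 24 were rises in neither 40-day group (3.04% of all genes). Without LD_20d replicate 2, 13 kinesins were called in place of 27, and the same number was left without control replicate 3. A fit to these 2 groups alone called 17. The 24% belongs to the full fit, and shares of all genes called in these alternatives are not given here.

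A smaller set of kinesins was higher than the control at both ages and under both photoperiods. There were 6 such genes, against 4.51% of all tested genes: KIN7K, KIN7E, KINUB LOC110022846, KIN14C LOC110034037, KIN14F LOC110019947 and KIN14R LOC110027917. KIN14C LOC110034037 had 7.74, 6.91 and 9.20 CPM in the control, 20.1, 25.7 and 18.1 in LD_20d, 26.1, 24 and 28 in SD_20d, 23.9, 18.2 and 18.1 in LD_40d and 23.1, 25.4 and 23.5 in SD_40d. No treated library overlapped the control. In the same group order the log2 fold changes were 1.42 ± 0.16, 1.71 ± 0.17, 1.33 ± 0.16 and 1.59 ± 0.17, with adjusted p from 1.5e-05 to 9.51e-05. All 4 calls held in every alternative.

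KIN7K LOC110039397, an abundant motor, was at 131, 120 and 127 CPM in the control and between 191 and 244 in all 12 treated libraries. Its 4 fold changes lay between 0.70 and 0.85, each with a standard error of 0.09. KIN14F LOC110019947 rose most at 20 days of LD, from 4.24, 3.70 and 2.12 CPM to 14.2, 20.8 and 16.4 (2.35 ± 0.30, adjusted p = 0.000137). KIN14R LOC110027917 stood at 7.01, 6.42 and 5.98 CPM in the control, 24, 23.3 and 23.4 in SD_20d and 19.2, 22.8 and 25.7 in SD_40d, with rises of 1.87 ± 0.21 and 1.80 ± 0.21. KIN7E LOC110033630 and KINUB LOC110022846 rose by 0.77 to 1.13 and by 0.38 to 0.56.

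KIN4A LOC110026211 is matched to the rice counterpart of an Arabidopsis motor that orders cellulose deposition in the wall. Its CPM went from 69.5, 85.6 and 75.7 in the control to 145, 149 and 139 in LD_20d and 138, 132 and 131 in SD_20d. The rises were 0.91 ± 0.20 and 0.79 ± 0.20 (adjusted p = 0.00526 and 0.00763). SD_40d had 141, 85.7 and 81.3 CPM, so replicate 1 alone stood at the 20-day level. The 40-day values over the control were 0.66 ± 0.20 in LD, which was called, and 0.42 in SD, which was not. The LD call was lost in 4 of 11 alternatives, with adjusted p up to 0.096.

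Light chains moved in different directions. KLCR proteins in Arabidopsis bind cortical microtubules and hold them in place beneath the cellulose synthases. KLCR2 LOC110028553 was the 1 kinesin called lower than the control in all 4 treated groups (5.73% of all genes were). Its CPM were 46.3, 52.6 and 39.9 in the control, 28.5 to 31.7 in LD_20d, 29.4 to 36.2 in SD_20d, 22.5 to 24.7 in LD_40d and 21.2 to 25.3 in SD_40d. The falls were -0.62 ± 0.12, -0.48 ± 0.12, -0.99 ± 0.12 and -0.98 ± 0.12. The other 2 KLCR2 loci were called in no comparison: LOC110019663, for example, stayed between 135 and 174 CPM in all 15 libraries. KLC4 LOC110039005 had 51.4, 19.3 and 56.5 CPM in the control and 86.1, 112 and 105 in SD_40d, a rise of 1.25 ± 0.27 (adjusted p = 0.00315).

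LD_40d compared with the control gave 9 higher and 6 lower kinesins (27.5% of all genes called, 13.9% higher and 13.6% lower), and SD_40d gave 10 higher and 5 lower (38.3%, 18.8% and 19.5%). The kinesin medians were -0.00 and -0.06, against -0.01 and -0.05 for all genes, and the kinesin share called was 22.4% in each. Without SD_40d replicate 1, 10 kinesins were lower in SD_40d in place of 5, and without either other SD_40d library 3 were. Shares of all genes in these fits are not given here. Lower genes included KIN14K LOC110021177, which had 36.0, 38.5 and 36.7 CPM in the control, 17.4, 21.1 and 17.5 in LD_40d and 20.2, 12.7 and 13.2 in SD_40d. Its falls were -0.99 ± 0.21 and -1.27 ± 0.22 (adjusted p = 0.0044 and 0.000716).

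Between 20 and 40 days under SD, 38 kinesins fell and none rose, where 40.7% of all genes were called and 20.7% fell. The kinesin median was -0.97. Among them were 8 of 10 KIN-12 genes, both KIN-10 genes, 9 of 16 KIN-14 genes, 6 of 12 KIN-7 genes and 3 each of the tested KIN-5, KIN-8 and KIN-13 genes. KIN14I LOC110023087 fell by 1.63 on the log2 scale and KIN14R LOC110038740 by 3.50, both with adjusted p = 0.00065. KIN8B LOC110025956 went from 26.9, 30.5 and 29.4 CPM to 15.5, 13 and 11.5 (-1.12 ± 0.15, adjusted p = 0.000708). For 30 kinesins a rise from the control to SD_20d was followed by a fall to SD_40d, as for 8.07% of all genes, and both steps share the SD_20d libraries. Of the 38 falls, 32 were called in every alternative.

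Under LD the same interval gave 10 kinesins that fell and none that rose, where 5.16% of all genes were called, 2.17% as higher and 2.99% as lower. The median was -0.61, and 34 kinesins had an unadjusted p under 0.05 with a lower value (13.6% of all genes). KIN10A LOC110028660 fell by 3.26, KIN4C LOC110030600 by 3.54, KIN12C LOC110035815 by 2.24, and KIN5C LOC110022469 by 1.75 (adjusted p = 0.0289, 0.0404, 0.0342 and 0.0323). KIN14F LOC110030637 went from 54.2, 110 and 102 CPM to 38.3, 52.4 and 42.5 (adjusted p = 0.036). DESeq2 called 25 in place of 10. None of the 10 held in every alternative, and none was called without LD_20d replicate 2, without LD_20d replicate 3, without LD_40d replicate 1, or in a fit to these 2 groups alone. Without LD_40d replicate 2 there was 1 call, without LD_20d replicate 1 there were 22, and with the replicate block 3. The share of all genes called in each alternative is not given here.

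**Figure D4:**
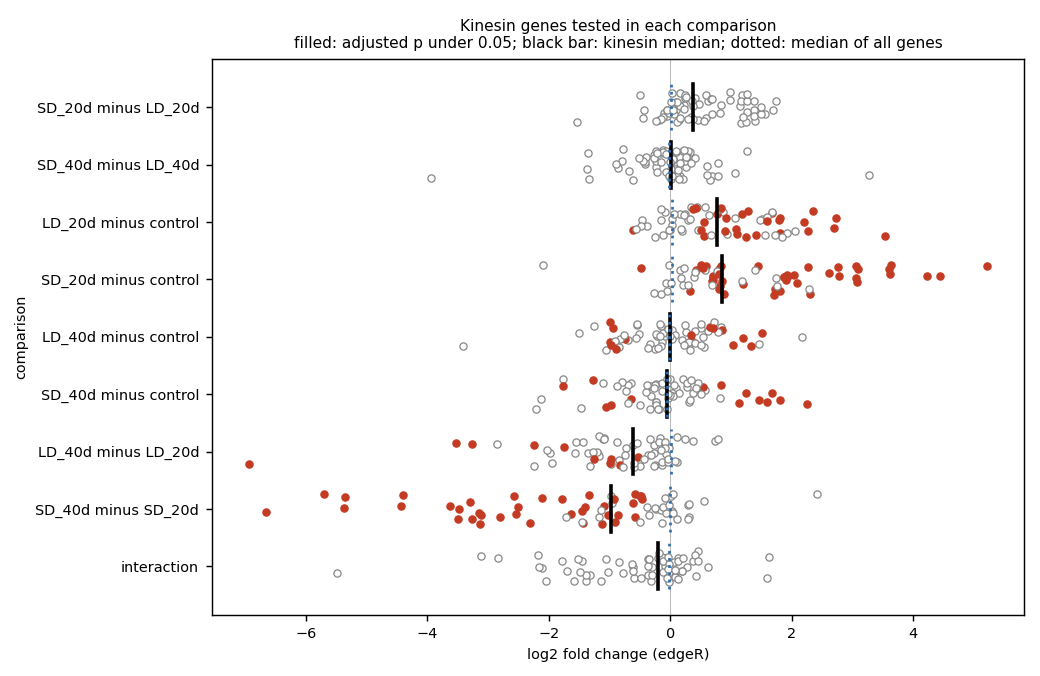
Log2 fold change of each of 67 tested kinesins in the 9 comparisons (filled points, adjusted p under 0.05; black bar, kinesin median; dotted bar, median of all tested genes). Points lie mostly right of 0 for both 20-day groups over the control and left of 0 from 20 to 40 days, while no point is filled between photoperiods or in the interaction.

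Day length was the study's question, and it was tested at each age. Between SD_20d and LD_20d no kinesin was called by edgeR, where 0.862% of all genes were, and the smallest adjusted p was 0.0792. At an unadjusted p under 0.05 there were 22 kinesins, all higher in SD, where 7.02% of all genes were higher. In 18 kinesins all SD_20d libraries were above all LD_20d libraries (14.1% of all genes), and in 3 all were below (13.2%). DESeq2 called 6, all higher. Without LD_20d replicate 2, edgeR called 19, all higher, with KIN4C LOC110030600 at 3.68, KIN14J LOC110036853 at 2.74 and KIN12C LOC110035815 at 2.37 (adjusted p = 0.0029, 0.00177 and 0.00364). Without any other single library of these 2 groups it called none. The 0.862% belongs to the full edgeR fit. Shares of all genes in DESeq2 and in the fits with 1 library left out are not given here.

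The 3 kinesins with the smallest p were KIN8B LOC110025956, KINUC LOC110027285 and KIN14R LOC110038740. KIN8B, of a family that shortens microtubules in yeast and animals, had 17.8, 21.4 and 18.5 CPM in LD_20d and 26.9, 30.5 and 29.4 in SD_20d (0.59 ± 0.15, adjusted p = 0.0792). KINUC had 2.51, 4.78 and 2.35 CPM against 6.49, 8.16 and 7.12 (1.17 ± 0.29, adjusted p = 0.0792). KIN14R LOC110038740 had 1.60, 4.37 and 2.27 CPM against 5.56, 7.99 and 7.83 (1.37 ± 0.38, adjusted p = 0.097). The groups did not overlap for any of the 3. For 15 kinesins all 3 SD_20d libraries were above all 12 others (5.6% of all genes).

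At 40 days no kinesin was called between SD and LD by edgeR, where 0.461% of all genes were, and DESeq2 called 1. At an unadjusted p under 0.05, 5 were higher in SD and 1 lower, against 7.29% and 8.19% of all genes. Groups did not overlap for 6 with higher and 2 with lower values (7.26% and 7.86%). The kinesin median was 0.01. KIN14R LOC110027917 had 16.0, 18.3 and 10.1 CPM in LD_40d and 19.2, 22.8 and 25.7 in SD_40d (0.61 ± 0.20, adjusted p = 0.167). KIN7L LOC110032033 had 48.0, 25.5 and 27.6 against 53.4, 50.2 and 55.0 (0.65 ± 0.23, adjusted p = 0.21). KIN8A LOC110033579 had 1.90, 3.18 and 0.205 against 0, 0.0915 and 0.221 (-3.94 ± 1.29, adjusted p = 0.174), and this is the gene that DESeq2 called. KIN14H LOC110017825 had 13.1 CPM in SD_40d replicate 1 and 62.3 and 63.8 in the others, against 17.4, 16.8 and 23.6 in LD_40d. Without SD_40d replicate 1, edgeR called 4 kinesins: KIN14H and KIN14R LOC110027917 higher, KIN4A LOC110026211 and KIN5A LOC110026416 lower. For that fit and for DESeq2 the share of all genes called is not given here.

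The test of whether the SD minus LD difference changed between the ages called no kinesin in edgeR or in DESeq2, and edgeR called 0% of all genes. Without SD_40d replicate 1 it called 4 kinesins and without LD_20d replicate 2 it called 3, all lower. The 0% belongs to the full edgeR fit, and shares of all genes in the fits with a library left out are not given here. At an unadjusted p under 0.05 there were 13, all with a smaller value at 40 days, where 4.86% of all genes had a smaller and 6.11% a larger one, and the smallest adjusted p was 0.385. The 3 smallest p belonged to KIN14I LOC110023087 (-1.02 ± 0.28), KIN8A (-5.49 ± 1.57) and KIN14R LOC110038740 (-2.05 ± 0.60).

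A group of 4 KIN-7 loci varied together and widely within groups. KIN7O LOC110029809 and KIN7I LOC110029810, LOC110029813 and LOC110029814 lie next to each other on the minus strand of 1 scaffold, between positions 316891 and 692607 in the deposited table, whose build is not stated. Their summed CPM were 40.7, 8.56 and 38.9 in the control, 95.6, 93.0 and 110.6 in LD_20d, 15.2, 85.1 and 127.1 in SD_20d, 13.1, 71.0 and 39.2 in LD_40d and 53.7, 31.0 and 17.5 in SD_40d. Control replicate 2, SD_20d replicate 1 and LD_40d replicate 1 were the lowest of their groups at all 4 loci. The LD_20d libraries lay above the control libraries at all 4, with values of 1.67 to 1.93, but none was called in any comparison. The next gene beyond LOC110029814, an OSR8-like hydrophobic protein (LOC110029830), stayed between 5.21 and 9.22 CPM. On the other side, ENL3 LOC110029845, matched to an early nodulin-like protein, ran from 0 to 27.2 CPM and was at 11.1, 27.2 and 25.9 CPM in SD_20d. Whether the 4 loci are separate genes was not tested.

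**Figure D5:**
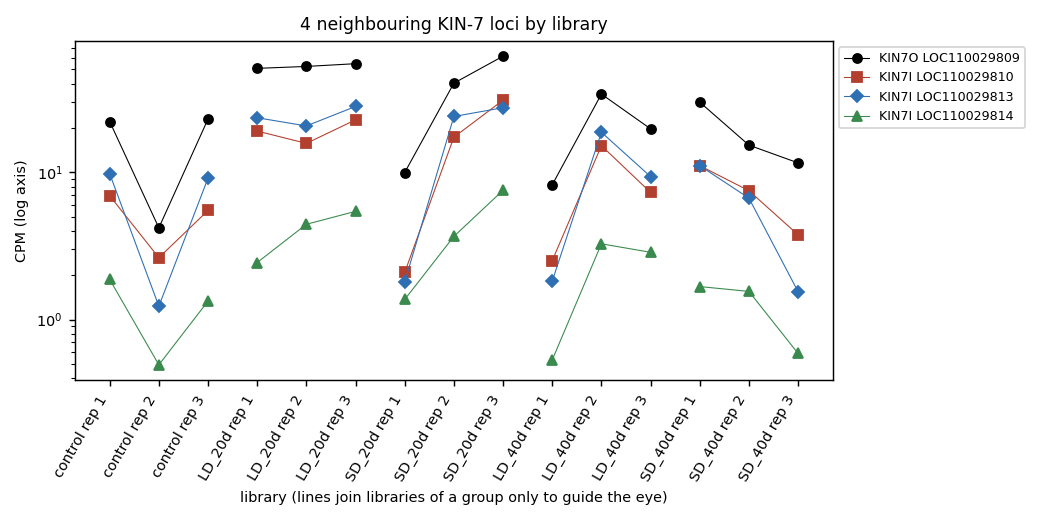
CPM (log axis) of the 4 neighbouring KIN-7 loci in the 15 libraries, with thin lines that join libraries of a group only to guide the eye. All 4 symbols drop together in control replicate 2, SD_20d replicate 1 and LD_40d replicate 1.

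Genes that work with kinesins were counted from lists made by words in the descriptions, with kinesins left out. Of 15 tested tubulin genes, which here include gamma-tubulin complex parts, 10 rose and none fell in SD_20d over the control, 4 rose in LD_20d, and 8 fell from SD_20d to SD_40d. Of all tested genes 17.2% rose in the first of these comparisons and 11.4% in the second, and 20.7% fell in the third. TUBB2 LOC110022085 fell by 6.59 from SD_20d to SD_40d (adjusted p = 0.00141). Of 64 microtubule-associated genes, 29 rose and 1 fell in SD_20d (17.2% and 17.9% of all genes), and 7 rose and 31 fell from SD_20d to SD_40d (20.1% and 20.7%). The gamma-tubulin complex parts, GCP2 and GCP4 among them, are counted in both lists. KTN80.3 LOC110030843, a subunit of the severing enzyme katanin, rose by 1.09 ± 0.11 in SD_20d (adjusted p = 1.69e-05), and MAP65-3 LOC110018425, which bundles phragmoplast microtubules in Arabidopsis, fell by 2.31 from SD_20d to SD_40d (adjusted p = 0.000823).

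Mitosis and cytokinesis genes were counted likewise. Of 60 tested, 40 rose and 1 fell in SD_20d over the control (17.2% and 17.9% of all genes). In LD_20d 19 rose and 1 fell (11.4% and 12.6%), and from SD_20d to SD_40d 1 rose and 43 fell (20.1% and 20.7%). Their summed CPM were 867 to 922 in the control, 878, 1558 and 1050 in LD_20d, 1527 to 1837 in SD_20d, 781 to 816 in LD_40d and 808 to 865 in SD_40d. LD_20d replicate 2 was again close to SD_20d. AUR3 LOC110030091, an Aurora kinase of mitotic chromosomes, was the 1 gene of these lists called between photoperiods, at 1.26 ± 0.23 in SD_20d over LD_20d (adjusted p = 0.0256).

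Of 23 tested S phase genes, 1 rose and 3 fell in SD_20d over the control (17.2% and 17.9% of all genes), and none rose and 7 fell in LD_20d (11.4% and 12.6%). From SD_20d to SD_40d none rose and 19 fell (20.1% and 20.7%). At 40 days 16 were below the control in LD (13.6%) and 20 in SD (19.5%), among them MCM7 LOC110018054, a subunit of the replicative helicase, at -1.93 ± 0.31 in LD_40d (adjusted p = 0.000705). Their summed CPM ran from 678 to 777 in the control, 344 to 648 in LD_20d, 485 to 640 in SD_20d, 288 to 405 in LD_40d and 215 to 278 in SD_40d.

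Markers of leaf mesophyll, 15 chlorophyll-binding and Rubisco small-subunit genes, all had counts, with summed CPM of 49494 to 63658 in the control and 9254 to 24583 in the treated libraries. LD_20d replicate 2 had the lowest sum. Of the meristem list, WUS LOC110036538 and KNAT6 LOC110036521 had mean CPM of 0.00465 and 0.00574, so other members, not named here, carried its sum. The whole list (18 of 22 genes with a count in any library) summed to 254 to 259 CPM in the control, 279 to 376 in LD_20d, 238 to 274 in SD_20d, 403 to 411 in LD_40d and 350 to 415 in SD_40d. All 40-day libraries were above all control libraries. The guard cell list (7 of 7 genes) was carried by ASPG1 LOC110018834, with a mean of 203 CPM, whereas MUTE, SPCH and FAMA averaged 0.21, 0.431 and 1.13 CPM. It summed to 208 to 306 CPM in the control, 213 to 278 in LD_20d, 254 to 301 in SD_20d, 126 to 182 in LD_40d and 49.9 to 221 in SD_40d. The floral organ list (27 of 35 genes) was matched by words such as AGAMOUS, so it need not hold floral organ genes alone. It summed to 31.6 to 36.6 CPM in the control, 33.5 to 37.8 in LD_20d and 45 to 50.6 in SD_20d. At 40 days the sums were 29.8 to 38.4 in LD and 34.6 to 54.3 in SD. Which members carried them is not given here. Pollen-named genes (12 of 15) summed to 469 to 719 CPM in the control, 533 to 625 in LD_20d, 626 to 672 in SD_20d, 376 to 463 in LD_40d and 248 to 532 in SD_40d. The part of cell types in the kinesin values was not tested.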

How the data were processed

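The authors deposited 1 table with whole-number read counts per gene, FPKM, gene length and protein matches. The submitters' processing notes name HTSeq 0.9.1, HISAT2 2.0.5, DESeq 1.30.0 and cutadapt 1.15, without their roles; genome build and strand setting are not given in the sources used here. The deposited FPKM served only as a check: they gave back the count within 0.5 reads for all 76 kinesins in every library. Gene length and positions are other columns of the deposited table.

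The deposited counts entered the quasi-likelihood test of edgeR 4.0.16 (R 4.3.3), after filterByExpr and TMM scaling. A single model of all 15 libraries had 1 term per group and no other covariate, and gave 9 comparisons. Standard errors were taken as |log2 fold change| divided by the square root of F. DESeq2 1.42.0 and other alternatives are given in the closing section. Counting intervals cover counting error alone.

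Members, lists and tests were chosen with earlier results of these data known. Named genes were the up to 6 called kinesins with the smallest adjusted p per comparison, up to 2 of the rarer direction, the most abundant gene per length in each family, the 3 smallest p where a photoperiod comparison had fewer than 3 calls, KIN14C and KIN10C, and up to 3 called genes of each list. Others, such as KIN7A, KIN14A, KIN14C LOC110036922, KIN14H, KIN14J, KLC4 and the 4 KIN-7 neighbours, were named after their values were seen. From the mitosis and S phase lists 12 genes were dropped that matched by a species or MADS-box name alone (2 and 10), after the matches were seen.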

Additional observations from a re-analysis of the deposited data

How the results depend on the processing

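Counts of called kinesins kept within 1.5 times under RLE scaling and with no filter on low counts in all 9 comparisons. DESeq2 called 6 in place of 0 for SD_20d minus LD_20d, 1 in place of 0 for SD_40d minus LD_40d, and 25 in place of 10 for LD_40d minus LD_20d. A fit to the groups compared alone gave 17 in place of 27 for LD_20d minus control and 0 in place of 10 for LD_40d minus LD_20d. With the replicate block 3 were left of 10 in LD_40d minus LD_20d, and the other counts stayed within 1.5 times. Shares of all genes called under the alternatives, fits with 1 library left out included, are not given here. Whether such shifts in calls are particular to kinesins was not tested. The labels do not say that replicate numbers pair the libraries, and 3 libraries a group are too few to decide it. Same-numbered deviations from the group means correlated over genes at -0.29 to 0.36. In no comparison were all 3 pairs over 0.1, but for SD_20d minus LD_20d all were positive (0.36, 0.25 and 0.07).

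Leaving out 1 library gave 0 to 19 calls for SD_20d minus LD_20d, 0 to 4 for SD_40d minus LD_40d, 13 to 30 for LD_20d minus control, 34 to 44 for SD_20d minus control, 10 to 13 for LD_40d minus control, 12 to 20 for SD_40d minus control, 0 to 22 for LD_40d minus LD_20d, 34 to 42 for SD_40d minus SD_20d and 0 to 4 for the interaction. The libraries that move counts most are LD_20d replicates 1, 2 and 3, LD_40d replicates 1 and 2, SD_40d replicate 1 and control replicates 1 and 3; without LD_20d replicate 2 the interaction called 3, and without control replicate 1 LD_20d minus control called 14. The cause was not tested.

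Of 82 called values of kinesins named by the rules above, 62 held in every alternative, 20 lost their call in at least 1 and none changed sign. Kinesins named after their values were seen are not among the 82. Uncalled values did change sign. KIN14C LOC110034037 in LD_40d minus LD_20d (-0.08) ran from -0.229 to 0.0730 with 1 library left out, above 0 without LD_20d replicate 2. Its interaction value (-0.03) ran from -0.190 to 0.112, above 0 for 5 of the libraries left out. KIN10C LOC110022016 in SD_40d minus control (-0.13) became 0.52 with the replicate block and ran from -2.81 to 3.19 with 1 library left out, the highest without control replicate 2. Its interaction value (1.59) ran from -1.05 to 2.36, below 0 without LD_20d replicate 2 or SD_40d replicate 1. Genes under a few CPM are limited by depth, since 1 count is worth about 0.07 to 0.09 CPM.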
